A study of Mus musculus with 92 samples.

Results

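The genes described here are translation initiation factors and their close regulators, apart from the cap-binding complex eIF4F. They were taken as all protein-coding rows of the count tables whose symbol begins with Eif and a digit from 1 to 6, leaving out Eif4g1, Eif4g2, Eif4g3, Eif4e, Eif4e2, Eif4a1, Eif4a2, Eif4ebp1 and Eif4ebp2. This rule gave 46 genes, out of 55 protein-coding rows with such a symbol and 54532 gene rows in all. By role they were 5 genes of the eIF1 family, 6 of eIF2 and related carriers of the initiator tRNA, 4 kinases of eIF2alpha, 5 of eIF2B, 14 of eIF3, 7 accessory to eIF4F, and 5 that act at subunit joining or later.

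The study deleted Eif4g2 in mouse intestine, and the libraries fall into 21 groups with 92 libraries in all. Every animal and culture used here carried an inducible CreER recombinase. Rosa26(CreER) mice, in which the broadly active Rosa26 locus drives CreER, were either Eif4g2(flox/flox), called homozygous below, or Eif4g2(flox/+), called heterozygous. All of them received tamoxifen and were taken on day 9, giving 4 homozygous and 5 heterozygous crypt libraries and 5 villus libraries of each genotype. Vil1(CreER) mice, in which the villin gene drives CreER in intestinal epithelium, had the same 2 Eif4g2 genotypes. They received 4 daily injections of tamoxifen at 100 mg per kg and were taken at 3 months, as labelled. Their crypts gave 3 libraries of homozygous and 4 of heterozygous mice, and their villi 6 and 4. The heterozygous controls of both drivers had therefore also been exposed to deletion of one copy of Eif4g2. Small intestinal organoids and fetal intestinal spheroids, all Rosa26(CreER), were treated with 4-hydroxytamoxifen (4-OHT) at 0.5 µM for 24 hours or with the solvent DMSO, and harvested on day 6. The labels of these cultures all name the medium ENR. A first organoid set was Eif4g2(flox/flox) with 3 DMSO and 3 4-OHT libraries. A second organoid set received 4-OHT throughout and compared 4 Eif4g2(flox/flox), 4 Eif4g2(flox/+) and 4 Eif4g2(+/+) libraries, the last called CreER-only below. Spheroids with DMSO or 4-OHT had 6 flox/flox and 5 flox/+ libraries per treatment. Another 16 organoid libraries came from 4 lines, 1 of them Eif4g2(+/+) and 3 flox/flox but not given 4-OHT, cultured for 4 days with DMSO or with 3, 5 or 10 µM of A-485, which blocks p300 and CBP, the enzymes that acetylate histones at active genes and enhancers.

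Initiation factors bring the small ribosomal subunit, the initiator tRNA and a messenger RNA together and then allow the large subunit to join. eIF1, eIF1A and eIF5 act on the small subunit while it scans for a start codon, eIF2 delivers the initiator tRNA as a GTP complex, eIF2B recharges eIF2 with GTP, and eIF3 is the large scaffold that links the small subunit to eIF4F. The kinases (encoded by Eif2ak1 to Eif2ak4, also known as HRI, PKR, PERK and GCN2) phosphorylate eIF2alpha under stress and thereby restrain eIF2B. eIF4G2, also called DAP5, is a relative of eIF4G1 that lacks the binding site for the cap-binding protein eIF4E and supports initiation on a subset of messages. In the intestine, protein synthesis is high in the dividing cells of the crypt, from which cells move onto the villus as they differentiate.

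The regulatory sequence next to the start of the members that the comparisons turn on is shown first. Promoter windows of 300 bases, from RefSeq on GRCm38.p6, were found by symbol for 36 of the 46 members, with 45 windows in all. Each line gives 110 bases before and 10 bases from the annotated start, read 5′ to 3′ along the transcribed strand. Eif1, Eif5 and Eif1b are shown because they were called higher in 7, 6 and 5 of 7 comparisons of lost against kept Eif4g2 that share no library. Eif3f and Eif3m are shown because they are eIF3 subunit genes called lower in some of these, and Eif5a2 for its rise under A-485. The 7 comparisons share no library, but crypts and villi of a driver came in part from the same mice. Capitals mark matches to any of 5 letter motifs on either strand, namely CACGTG (the E-box), CCGGAA (an ETS core), CCAAT (the CCAAT box), GGGCGG (the GC box) and TATAAA (the TATA box).
Eif1, chr11:100319839-100319958, plus strand: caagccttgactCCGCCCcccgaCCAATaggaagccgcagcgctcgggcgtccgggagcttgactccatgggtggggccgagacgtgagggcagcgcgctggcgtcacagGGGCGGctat
Eif1b, chr9:120492496-120492615, plus strand: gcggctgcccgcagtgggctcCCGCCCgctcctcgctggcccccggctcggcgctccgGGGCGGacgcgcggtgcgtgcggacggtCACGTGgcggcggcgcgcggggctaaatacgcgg
Eif5, chr12:111537991-111538110, plus strand: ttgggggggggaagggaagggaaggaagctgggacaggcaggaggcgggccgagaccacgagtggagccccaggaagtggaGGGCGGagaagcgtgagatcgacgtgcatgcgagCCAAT
Eif3f, chr7:108934305-108934424, plus strand: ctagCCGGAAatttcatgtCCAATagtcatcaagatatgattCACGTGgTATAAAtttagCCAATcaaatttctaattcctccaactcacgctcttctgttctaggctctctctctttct
Eif3m, chr2:105017018-105017137, minus strand: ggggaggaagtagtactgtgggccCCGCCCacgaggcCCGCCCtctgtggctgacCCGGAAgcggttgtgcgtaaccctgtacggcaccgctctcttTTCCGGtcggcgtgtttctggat
Eif5a2, chr3:28781167-28781286, plus strand: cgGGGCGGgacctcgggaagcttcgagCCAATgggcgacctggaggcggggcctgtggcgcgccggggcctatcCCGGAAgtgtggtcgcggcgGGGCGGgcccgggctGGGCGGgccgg

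Over the whole windows of 300 bases, CCGGAA was found in 18 of the 36 matched members and in 14.9% of all 32851 windows of the table. GGGCGG was found in 28 of the 36 members and in 35.7% of all windows, CACGTG in 7 members and 7.15% of windows, CCAAT in 13 members and 37.4% of windows, and TATAAA in 4 members and 13.6% of windows. The 36 members held 45 windows, so counts of members and shares of single windows are unlike measures. The E-box was in the windows of Eif1b, Eif3a, Eif3f, Eif3k, Eif4h, Eif5a and Eif5a2, which include members that rose and members that fell after loss of Eif4g2. Eif1 and Eif5 held both GGGCGG and CCAAT, while Eif1b held GGGCGG as well as the E-box and the ETS core, so of the 5 motifs only the common GC box was present in all 3. These are matches of letters and say nothing about binding.

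Depth was sufficient to measure nearly all members. Libraries held between 8652040 and 37611126 counts, and from 43 to 45 of the 46 members had at least 1 read in a given library. Eif4e1b, the oocyte form of the cap-binding protein, had too few reads to be tested in any comparison, and 43 members were tested in all 18 comparisons between 2 groups. Levels are given as CPM (reads per 1000000 counts after TMM scaling within a set, crypts together with villi) and, where genes are compared with each other, as CPM per kilobase of the gene length in the tables. Eif4g2 itself ran from 220 to 270 CPM in flox/flox organoids of the second set and from 1257 to 1335 CPM in CreER-only organoids, and its level was below that of every control library in each group with deletion of both copies. Crypt and villus labels were borne out by markers, with summed enterocyte markers at 52942 CPM in heterozygous Rosa26 villi and 1814 CPM in crypts, and summed Paneth markers at 123 and 13784 CPM.

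The most abundant members per kilobase in CreER-only organoids were Eif5a (the hypusinated factor that helps ribosomes through difficult peptide bonds) at 346 ± 14, Eif4b (a helper of the eIF4A helicase) at 245 ± 6.74, the eIF3 subunit gene Eif3h at 197 ± 3.51 and Eif1 at 193 ± 3.24 CPM per kilobase (mean ± SD, n = 4). The libraries of Eif3h and Eif1 overlapped. At the other end, Eif5a2, the tissue-restricted paralog of Eif5a, had 0.702 ± 0.158 and Eif4ebp3 had 0.201 ± 0.224 CPM per kilobase. In heterozygous villi the order changed: Eif6, which keeps the large ribosomal subunit apart from the small one, stood first in Rosa26 mice at 149 ± 8.44 CPM per kilobase and second in Vil1 mice at 97.3 ± 13.6, and Eif1 stood second and first at 118 ± 12.7 and 120 ± 16.2 (n = 5 and 4). In Rosa26 crypts Eif5a stood first at 220 ± 8.89 and Eif3h second at 139 ± 8.12 CPM per kilobase (n = 5).

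Crypts of control mice held more of most initiation factor mRNAs than villi. In heterozygous Rosa26 mice 40 of 45 tested members were called at an adjusted p under 0.05 in edgeR's quasi-likelihood test (all genes, 77.1%), 31 higher in crypts (40.6%) and 9 higher in villi (36.4%). The median log2 difference of the members was 0.77, against 0.09 over all genes tested. In heterozygous Vil1 mice 38 of 44 were called (all genes, 67.9%), 30 higher in crypts (35.2%) and 8 higher in villi (32.7%), with medians of 0.81 and 0.08. All members together took 0.712% of counts in Rosa26 crypts and 0.249% in villi. These are shares of raw counts, before TMM scaling, and the gap between the tissues is smaller in scaled CPM. In these bulk samples a change in the mix of cells and a change in RNA per cell cannot be told apart, here and in every comparison below.

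eIF3 was the most uniform group along this axis. Of its 14 genes, 13 were higher in crypts in both drivers (all genes, 40.6% in Rosa26 and 35.2% in Vil1 mice). Eif3j2, a low-count copy of Eif3j1, was not called in either. The octamer core of eIF3 (the products of Eif3a, Eif3c, Eif3e, Eif3f, Eif3h, Eif3k, Eif3l and Eif3m) was called in 8 of 8 genes. Eif3i and Eif3a had the largest differences in Rosa26 mice, 1.97 ± 0.12 and 1.91 ± 0.11 (log2 ± SE), and Eif3c the smallest of the 13, 0.66 ± 0.08. The largest difference of any tested member in either driver was that of Eif2b3, which encodes the gamma subunit of eIF2B. It had 7.91, 8.37, 8.7, 9.62 and 9.91 CPM in the 5 heterozygous Rosa26 crypt libraries and 0.557, 0.623, 0.699, 0.73 and 1.42 CPM in the villi, a log2 difference of 3.47 ± 0.25 (edgeR adjusted p 9.23e-08). In Vil1 mice Eif2b3 had 9.11, 9.6, 9.86 and 13.3 CPM in crypts and 1.19, 1.24, 1.46 and 1.5 CPM in villi, a log2 difference of 3.00 ± 0.20. Every crypt library exceeded every villus library for this gene in both drivers.

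The kinase gene Eif2ak4 and the X-linked gene Eif1ax followed. Eif2ak4 (GCN2, which senses uncharged tRNA) had 9.36, 10.5, 11.6, 11.8 and 12.6 CPM in Rosa26 crypts and 1.78, 2.31, 2.47, 2.71 and 3.39 CPM in villi, and in Vil1 mice 12.7, 16.3, 16.5 and 16.8 against 4.01, 4.12, 4.2 and 5.06 CPM. Its log2 differences were 2.13 ± 0.18 and 1.90 ± 0.15 (edgeR adjusted p 3.02e-07 and 1.95e-06). Eif1ax, the X-linked gene for eIF1A, had 68.6, 74, 75.3, 79.3 and 85.7 CPM in Rosa26 crypts and 17, 17.6, 17.8, 19.3 and 19.8 CPM in villi, and 70.1, 71.7, 79.9 and 84.9 against 17.9, 22, 23.5 and 28.6 CPM in Vil1 mice. The groups did not overlap for either gene. Its autosomal copy Eif1a on chromosome 18 had 64.9, 70.5, 71.1, 72.1 and 72.4 CPM in Rosa26 crypts and 53.8, 55.4, 63.5, 66.1 and 89.8 CPM in villi, with an overlap between the groups and no call (0.08 ± 0.13, edgeR adjusted p 0.556). In Vil1 mice Eif1a was lower in crypts by a log2 difference of -0.46 ± 0.17 (edgeR adjusted p 0.033), a call lost in 5 of 8 fits that each left out 1 library, with the largest adjusted p of 0.0938 without heterozygous villus replicate 1. Eif1a and Eif1ax are close copies, and how reads shared between them were assigned is not given in the sources used here.

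A smaller set of members was higher on the villus. Eif6 had 142, 146, 153, 161 and 167 CPM in Rosa26 crypts and 367, 401, 407, 413 and 429 CPM in villi, and 70.6, 83.5, 84.7 and 85.2 against 237, 244, 255 and 317 CPM in Vil1 mice. The log2 differences between crypt and villus were -1.40 ± 0.08 and -1.65 ± 0.12 (edgeR adjusted p 1.01e-08 and 9.18e-07). Eif2ak1, the kinase known for sensing heme and mitochondrial stress, had 47.9, 49.8, 52.2, 53.6 and 54.6 CPM in Rosa26 crypts and 121, 148, 151, 163 and 166 CPM in villi, and 49.4, 50.5, 55.4 and 58.6 against 98.6, 118, 122 and 134 CPM in Vil1 mice (-1.54 ± 0.09 and -1.09 ± 0.11). Eif2ak3, the kinase of the endoplasmic reticulum, had 26.3, 26.5, 29, 29.2 and 35.2 CPM in Rosa26 crypts and 53.6, 59.5, 60.7, 60.7 and 76.8 CPM in villi, and 20.9, 22, 23 and 29.5 against 47.6, 48.3, 51.5 and 54 CPM in Vil1 mice (-1.10 ± 0.11 and -1.02 ± 0.13). Each of these 3 genes separated crypts from villi without overlap in both drivers. Eif4e3, an atypical cap-binding protein, had 2.97, 3.37, 4.46, 4.68 and 4.76 CPM in Rosa26 crypts and 8.23, 10.2, 10.4, 10.5 and 15.9 CPM in villi, a log2 difference of -1.46 ± 0.20 (edgeR adjusted p 2.91e-05). In Vil1 mice its difference, -0.62 ± 0.31, was not called (edgeR adjusted p 0.0979). Eif4h, the partner of eIF4A related to eIF4B, and Eif1ad, an eIF1A-like gene, were also higher in villi of both drivers (-0.75 and -0.74, and -1.06 and -0.76), as was Eif1 (-0.28 and -0.60). The Rosa26 call of Eif1 was lost in 3 of 10 fits that each left out 1 library, with the largest adjusted p of 0.0959 without heterozygous villus replicate 2. With the animal as a block, 37 members were called in Vil1 mice in place of 38, with Eif2b2 and Eif4enif1 lost (edgeR adjusted p 0.0675 and 0.0742) and Eif4e3 gained (0.0258). Eif2ak2 was not called in either driver, with 26.3, 27.5, 28.5, 29.3 and 30.1 CPM in Rosa26 crypts and 24.9, 30, 31.8, 36.4 and 48.2 CPM in villi.

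**Figure D1:**
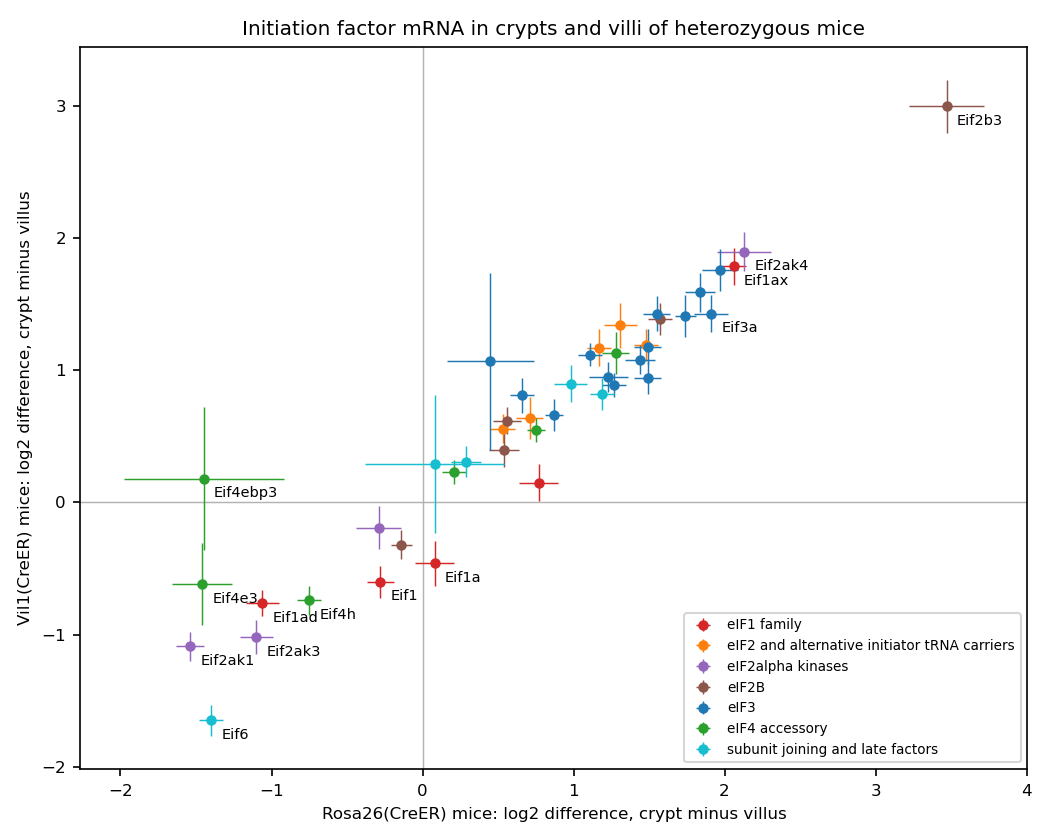
Log2 difference between crypts and villi of heterozygous mice for each tested member, with Rosa26(CreER) mice on the x axis and Vil1(CreER) mice on the y axis. Bars are standard errors and colours give the role of each gene. The eIF3 genes lie in the upper right (higher in crypts of both drivers) and Eif6, Eif2ak1, Eif2ak3, Eif1ad and Eif4h in the lower left.

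Loss of both copies of Eif4g2 changed a minority of the members in tissue. In Rosa26 crypts 15 of 45 tested members were called in edgeR (all genes, 20.2%), 4 higher (all genes, 8.63%) and 11 lower (all genes, 11.6%) in homozygous than in heterozygous mice. In Rosa26 villi 13 of 45 were called (33.2% of all genes), 5 higher (15%) and 8 lower (18.2%). In Vil1 crypts 13 of 44 were called (29.3%), 12 higher (11.6%) and 1 lower (17.7%). In Vil1 villi 9 of 44 were called (42.5%), 5 higher (20.9%) and 4 lower (21.6%). The share of members called was near that of all genes in Vil1 crypts and below it in both sets of villi. These counts depended on single libraries: the Rosa26 crypt count fell from 15 to 7 without homozygous replicate 4, 9 without heterozygous replicate 2, and 8 without heterozygous replicate 3 or 5. The Rosa26 villus count fell from 13 to 8 without homozygous replicate 2 or 3 or heterozygous replicate 2 or 4 and to 7 without heterozygous replicate 5, the Vil1 crypt count from 13 to 7 without homozygous replicate 1 or 3, and the Vil1 villus count from 9 to 5 without heterozygous replicate 4. Nothing in the labels says how the replicate numbers of these mice relate across genotypes, and p-values measure the spread between the animals sampled.

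In cultures the number of members called differed between the sets, from 6 in flox/flox spheroids to 30 in the second organoid set. In the first organoid set 11 of 44 members were called with 4-OHT against DMSO (35.4% of all genes), 8 higher (18.2%) and 3 lower (17.2%). The count fell to 5 without DMSO replicate 1 or 2 and to 6 without 4-OHT replicate 1, and with the line as a block Eif1ad was also called (-0.34, edgeR adjusted p 0.0343). In the second set 30 of 44 were called in flox/flox against flox/+ organoids (46.8%), 8 higher (22.6%) and 22 lower (24.3%). Against CreER-only organoids, with the same flox/flox libraries, 26 were called (45.3%), 7 higher (21.9%) and 19 lower (23.5%). In flox/flox spheroids 6 of 44 were called with 4-OHT against DMSO (19.1%), 5 higher (9.01%) and 1 lower (10%). With the replicate number as a block, which here marks the same spheroid line, 13 spheroid calls were made in place of 6 (34.6% of all genes), 6 higher (17.6%) and 7 lower (17.1%). Between flox/flox and flox/+ spheroids that had both received 4-OHT, 4 members were called (10.5%), 2 higher (4.36%) and 2 lower (6.13%).

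No member was called after loss of 1 copy, or between spheroid genotypes before deletion. Between flox/+ and CreER-only organoids 0 of 44 members were called by edgeR (0.113% of all genes; 0.0492% higher and 0.0633% lower), with 2 members at an unadjusted p under 0.05. Between 4-OHT and DMSO in flox/+ spheroids 0 were called (edgeR, 0% of all genes) and 0 had an unadjusted p under 0.05. Over all genes only 15 of 15032 had such a p in this comparison. The treatments share lines, with correlations from 0.626 to 0.857, and this test left the line out. It could therefore miss small effects. Between flox/flox and flox/+ spheroids under DMSO 0 were called (edgeR, 0% of all genes) and 3 had an unadjusted p under 0.05. The DESeq2 Wald test made 0, 0 and 0 member calls in these 3 comparisons. The log2 fold change of Eif1 was 0.03 ± 0.06 in the organoids and 0.14 ± 0.18 in the spheroids.

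Eif1 rose in every comparison of lost against kept Eif4g2. eIF1 sits near the decoding site of the small subunit and guards against starting at the wrong codon. The gene (chr11:100319885-100322096, plus strand) had 389, 396, 401 and 443 CPM in the 4 homozygous and 187, 204, 204, 209 and 227 CPM in the 5 heterozygous Rosa26 crypt libraries, or 1.04 ± 0.09 on the log2 scale (± SE; edgeR adjusted p 0.000249). In Rosa26 villi it had 606, 620, 626, 687 and 718 against 209, 243, 244, 271 and 275 CPM, or 1.34 ± 0.10 on the log2 scale (edgeR adjusted p 8.96e-06). All homozygous libraries lay above all heterozygous ones in both tissues. In Vil1 crypts Eif1 had 321, 337 and 343 against 153, 157, 165 and 167 CPM (1.06 ± 0.07, edgeR adjusted p 6.77e-05). In Vil1 villi it had 355 to 450 (median 405) CPM in the 6 homozygous and 220, 227, 279 and 284 CPM in the 4 heterozygous libraries (0.65 ± 0.12, edgeR adjusted p 0.000988). In neither Vil1 tissue did the genotypes overlap.

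The cultures repeated the rise of Eif1. The first organoid set had 505, 509 and 564 CPM with 4-OHT and 245, 257 and 281 CPM with DMSO (1.01 ± 0.09, edgeR adjusted p 0.000522). The second set had 697, 723, 730 and 821 CPM in flox/flox, 402, 406, 412 and 433 CPM in flox/+ and 398, 402, 404 and 414 CPM in CreER-only organoids, with log2 fold changes of 0.85 ± 0.06 and 0.88 ± 0.06 against the other two (edgeR adjusted p 3.35e-08 and 2.39e-08). The flox/+ and CreER-only values overlapped each other, and both lay below all flox/flox values. Flox/flox spheroids had 327 to 674 (median 597) CPM with 4-OHT and 234 to 368 (median 316) CPM with DMSO (0.85 ± 0.17, edgeR adjusted p 0.00156), and the groups overlapped. The lowest 4-OHT value was in replicate 6, whose Eif4g2 level, 224 CPM, was the highest of the 6 (the others had at most 119 CPM). The DMSO library of the same line also had the lowest Eif1 of its group, 234 CPM. Without the 4-OHT library of replicate 6, 5 members were called in place of 6, and the log2 fold change of Eif1 with 4-OHT was 0.96 (edgeR adjusted p 0.000182). Flox/+ spheroids had 257, 273, 328, 364 and 371 CPM with 4-OHT and 229, 231, 292, 337 and 360 CPM with DMSO. The difference between the 4-OHT effects in flox/flox and flox/+ spheroids was 0.72 ± 0.25 for Eif1 without regard to line and was not called (edgeR adjusted p 0.165). With the line as a block it was 0.69 and was called (edgeR adjusted p 0.00199), as was Eif5 at 0.53 (edgeR adjusted p 0.00244). This fit called 6 members (18.3% of all genes). Over the 7 comparisons with no library in common, Eif1 was called higher in 7. Crypts and villi of a driver came in part from the same mice, so these 7 are not independent repeats. Of 12043 genes tested in all 7, 189 (1.57%) were called higher in each, and Eif1 was the only member among them. These calls for Eif1 held without any single library.

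**Figure D2:**
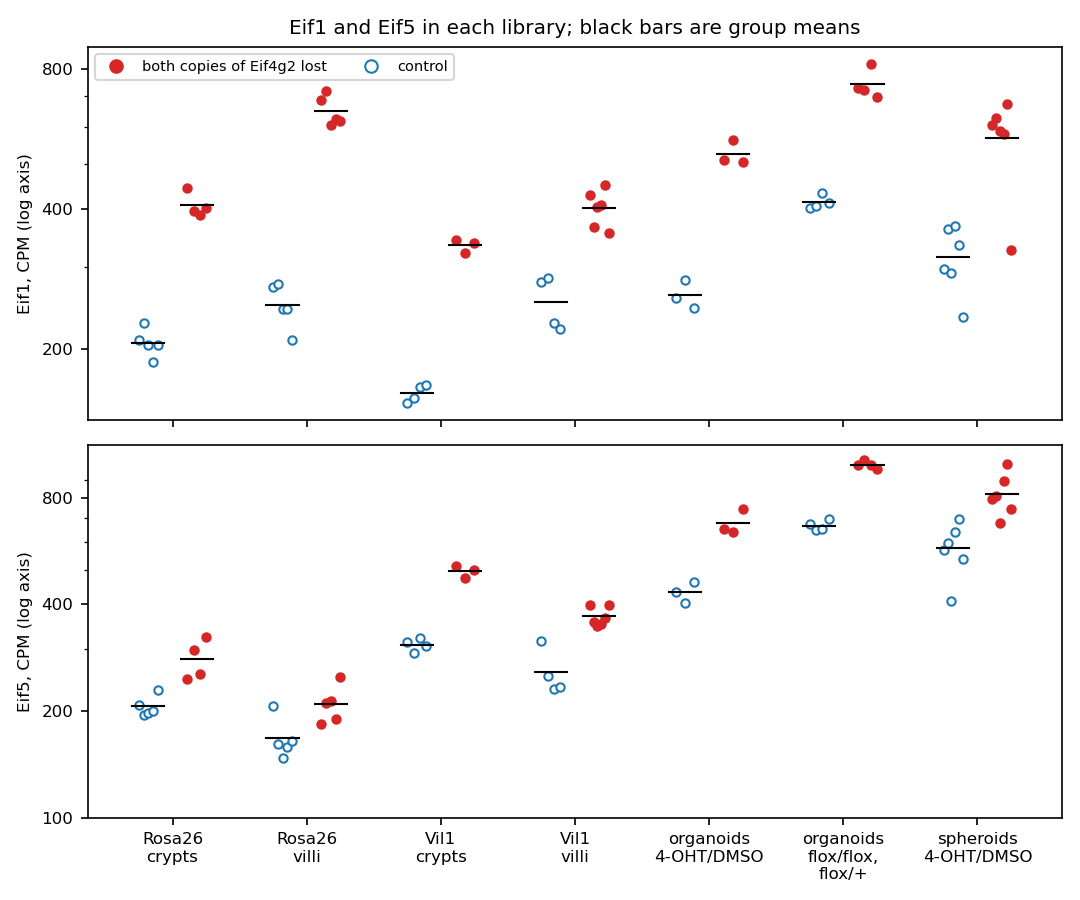
Levels of Eif1 and Eif5 in every library (points, CPM after TMM scaling, log axis) of the 7 comparisons of lost (filled) against kept (open) Eif4g2, with bars at group means. All points of Eif1 with both copies lost lie above those of their controls, except in 1 spheroid library, with log2 fold changes from 0.65 to 1.34.

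Other members of the eIF1 family moved less and in fewer comparisons. Eif1b, an Eif1 copy on chromosome 9, was called higher in 5 of the 7 comparisons, and Eif1a in 5. Of genes tested in all 7, 6.9% were called higher in 5 or more. Eif1b had 20.8, 25.1, 26.3 and 27.6 CPM in homozygous and 16.4, 17.2, 18.5, 19 and 20 CPM in heterozygous Rosa26 crypts (0.51 ± 0.11, edgeR adjusted p 0.0102). In the second organoid set it had 21, 25.7, 26.6 and 29.7 CPM in flox/flox, 16.4, 19.8, 20.9 and 21.3 CPM in flox/+ and 17.4, 19.5, 20.2 and 22.5 CPM in CreER-only libraries (0.39 ± 0.12, edgeR adjusted p 0.0128 against flox/+). The flox/flox libraries overlapped with the flox/+ libraries. The calls of Eif1b in Rosa26 villi, Vil1 crypts and the first organoid set were lost without single libraries (largest adjusted p 0.0969 without heterozygous villus replicate 4, 0.0542 without homozygous crypt replicate 3 and 0.0676 without DMSO replicate 1), and that in Rosa26 crypts with a covariate for reads of the Y-linked gene Ddx3y (edgeR adjusted p 0.223). Reads shared between Eif1 and Eif1b may count for either, and their part in these values was not tested. Eif1a had 135, 152 and 157 CPM with 4-OHT and 101, 106 and 106 CPM with DMSO in the first organoid set (0.50 ± 0.08, edgeR adjusted p 0.00367), and 111, 117 and 135 against 74.4, 81.7, 82.3 and 98.4 CPM in Vil1 crypts (0.53 ± 0.11, edgeR adjusted p 0.00921). In flox/flox spheroids it had 211 to 355 (median 238) CPM with 4-OHT and 138 to 228 (median 190) CPM with DMSO (0.48 ± 0.15, edgeR adjusted p 0.0283), a call lost in 5 of 12 fits that each left out 1 library, with the largest adjusted p of 0.0763 without flox/flox 4-OHT replicate 5. Eif1ax did not rise in any comparison of lost against kept Eif4g2. It fell in the second organoid set, from 150, 161, 173 and 177 CPM in flox/+ to 125, 139, 146 and 153 CPM in flox/flox libraries (-0.23 ± 0.07, edgeR adjusted p 0.0104).

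Among the carriers of initiator tRNA, Eif2a was lower in crypts and cultures without Eif4g2. The product of Eif2a (chr3:58525821-58557501, plus strand) is a single protein that can deliver the initiator tRNA without GTP and is distinct from eIF2alpha, which Eif2s1 encodes. Eif2a had 37.1, 40.3, 41.6 and 54.3 CPM in homozygous and 66.4, 74.4, 75.2, 78.3 and 78.9 CPM in heterozygous Rosa26 crypts (-0.73 ± 0.10, edgeR adjusted p 0.00139), and 62.4, 65.4 and 65.5 against 87.5, 90.8, 98.8 and 101 CPM in Vil1 crypts (-0.55 ± 0.08, edgeR adjusted p 0.00146). In both kinds of crypt every homozygous library lay below every heterozygous one. In villi the differences were -0.21 ± 0.09 and -0.18 ± 0.12 and were not called (edgeR adjusted p 0.105 and 0.22). In cultures Eif2a had 65.1, 66.3 and 70.4 CPM with 4-OHT against 78.8, 92 and 93.8 CPM with DMSO in the first organoid set (-0.39 ± 0.09, edgeR adjusted p 0.0149). It had 100, 104, 109 and 112 CPM in flox/flox, 118, 131, 133 and 135 CPM in flox/+ and 134, 136, 141 and 143 CPM in CreER-only organoids of the second set (-0.29 ± 0.06 and -0.38 ± 0.06, edgeR adjusted p 0.000663 and 6.02e-05). In flox/flox spheroids it had 95.9 to 126 (median 111) CPM with 4-OHT and 119 to 170 (median 163) CPM with DMSO (-0.46 ± 0.13, edgeR adjusted p 0.0133), and flox/+ spheroids with 4-OHT had 160, 164, 178, 188 and 205 CPM. The values overlapped between treatments of flox/flox spheroids.

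Eif2a lies against Serp1, a gene on the opposite strand with 313% of its reads over all libraries. Serp1 was called lower in none of these comparisons: its log2 fold change was 0.20 in Rosa26 crypts (edgeR adjusted p 0.314), 0.10 in Vil1 crypts (0.478), -0.09 in the first organoid set (0.59), 0.18 in flox/flox against flox/+ organoids (0.0167) and -0.07 in flox/flox spheroids (0.871). In the first organoid set the call of Eif2a was lost in 3 of 6 fits that each left out 1 library, with the largest adjusted p of 0.0661 without DMSO replicate 1. The 3 subunits of eIF2 itself moved in fewer comparisons. Eif2s2 (eIF2beta) rose in Vil1 crypts (0.51 ± 0.11) and in the first organoid set (0.35 ± 0.11) and fell in the second (-0.27 ± 0.09), with edgeR adjusted p of 0.0122, 0.0447 and 0.0168. These calls were lost without single libraries, with the largest adjusted p of 0.0533 without homozygous crypt replicate 1, 0.128 without 4-OHT replicate 2 and 0.0625 without flox/+ replicate 3, in turn. Eif2s1 fell only in the second set among these comparisons (-0.22 ± 0.07, edgeR adjusted p 0.0192), a call lost in 2 of 8 such fits with the largest adjusted p of 0.068 without flox/flox replicate 4. Eif2d, another single-protein carrier, was called in none of the comparisons of lost against kept Eif4g2.

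The gamma subunit of eIF2 is encoded by an X-linked gene, Eif2s3x, and a Y-linked copy, Eif2s3y. In the second organoid set Eif2s3x had 146, 160, 184 and 188 CPM in flox/flox, 203, 224, 228 and 233 CPM in flox/+ and 192, 194, 203 and 208 CPM in CreER-only libraries (-0.39 ± 0.08, edgeR adjusted p 0.000619 against flox/+). The flox/flox and flox/+ libraries did not overlap. Eif2s3y in the same libraries had 66.2, 67.7, 72.2 and 72.5 CPM in flox/flox, 71.8, 80.9, 81.1 and 83.4 CPM in flox/+ and 65.4, 74.3, 74.4 and 81.3 CPM in CreER-only organoids, so every one of the 12 carried the Y-linked copy. In Rosa26 tissue Eif2s3y was at 0 in some homozygous libraries only. It had 18.8, 21, 22, 22.2 and 24 CPM in the 5 heterozygous crypt libraries, 27.4, 28.7, 28.8, 32.4 and 33.6 CPM in the 5 heterozygous villus libraries, 0, 0, 0 and 20.4 CPM in the 4 homozygous crypt libraries and 0, 0, 0, 25.5 and 29.9 CPM in the 5 homozygous villus libraries. These 6 libraries at 0 are those with 0 reads of Ddx3y, another Y-linked gene. Sex and genotype were therefore partly confounded in Rosa26 mice, and their effects cannot be fully told apart. The fit with a covariate for Ddx3y reads is described for Rosa26 crypts only, and not for the villus calls. Eif2s3y was not called in crypts or villi (edgeR adjusted p 0.398 and 0.406). Eif2s3x had 65.8, 98.1, 107 and 124 CPM in homozygous and 84.6, 85.2, 92.3, 100 and 106 CPM in heterozygous Rosa26 crypts and the groups overlapped (0.13 ± 0.15, edgeR adjusted p 0.568). In Vil1 mice 1 animal of each genotype in crypts and 1 of each in villi carried Eif2s3y, with 0, 0 and 49.8 CPM in homozygous and 0, 0, 0 and 41.9 CPM in heterozygous crypts. With a covariate for Ddx3y reads in the Rosa26 crypt fit, 11 members were called in place of 15, and Eif4h, Eif5, Eif1b and Eif1a were among those no longer called (edgeR adjusted p 0.065, 0.094, 0.223 and 0.173), whereas the calls of Eif1 and Eif2a held.

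The eIF2alpha kinases showed small differences after loss of Eif4g2. Eif2ak3 had 61.5, 80.9, 86.6, 102 and 105 CPM in homozygous and 53.6, 59.5, 60.7, 60.7 and 76.8 CPM in heterozygous Rosa26 villi (0.44 ± 0.15, edgeR adjusted p 0.0368), and 62.8 to 88 (median 69.9) against 47.6, 48.3, 51.5 and 54 CPM in Vil1 villi (0.48 ± 0.12, edgeR adjusted p 0.00447). The genotypes overlapped in Rosa26 villi and were apart in Vil1 villi. The Rosa26 call was lost in 7 of 10 fits without 1 library, with the largest adjusted p of 0.0798 without heterozygous villus replicate 5. Eif2ak2 rose in cultures. It had 44.7, 45.5 and 51.2 CPM with 4-OHT and 31.6, 33.8 and 34.8 CPM with DMSO in the first organoid set (0.50 ± 0.09, edgeR adjusted p 0.00576), and in the second set 46, 47, 49.1 and 51.8 CPM in flox/flox, 41.2, 41.9, 42.4 and 43.5 CPM in flox/+ and 39.2, 40, 41.6 and 44.5 CPM in CreER-only libraries (0.20 ± 0.06, edgeR adjusted p 0.0168 against flox/+). In flox/flox spheroids Eif2ak2 had 31.8 to 73.2 (median 50.4) CPM with 4-OHT and 26.2 to 51.1 (median 28.3) CPM with DMSO (0.70 ± 0.23, edgeR adjusted p 0.0402). The spheroid call was lost in 8 of 12 fits without 1 library, with the largest adjusted p of 0.112 without flox/flox 4-OHT replicate 6, and the flox/flox against flox/+ organoid call in 1 of 8 (0.0531 without flox/flox replicate 4). In tissue Eif2ak2 was called in none of the 4 comparisons, with log2 fold changes from -0.17 in Vil1 villi to 0.48 in Rosa26 villi. Eif2ak4 was called in the second organoid set alone, with 32.4, 33, 35 and 36.5 CPM in flox/flox, 26.7, 28.3, 30.8 and 32.5 CPM in flox/+ and 25.2, 25.5, 26.7 and 28.6 CPM in CreER-only libraries (0.37 ± 0.08, edgeR adjusted p 0.00133 against CreER-only). Eif2ak1 fell in Vil1 villi, with 80 to 114 (median 90.8) CPM in homozygous and 98.6, 118, 122 and 134 CPM in heterozygous libraries (-0.35 ± 0.13, edgeR adjusted p 0.0409), a call lost in 7 of 10 fits without 1 library (largest adjusted p 0.139 without heterozygous villus replicate 4). Aimp2, on the opposite strand of Eif2ak1 with 26.1% of its reads, fell there too (-0.58, edgeR adjusted p 0.00882). The part of Aimp2 reads in the Eif2ak1 value was not tested.

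eIF2B, the exchange factor for eIF2, has 5 subunit genes, and these differed among themselves. In the second organoid set 4 of 5 fell in flox/flox against flox/+ organoids, where 24.3% of all genes fell. Eif2b1 led these, with 60.1, 64.7, 74.5 and 83.1 CPM in flox/flox, 94.3, 95.6, 96.5 and 103 CPM in flox/+ and 82.3, 88.2, 92.5 and 94.5 CPM in CreER-only libraries (-0.47 ± 0.09, edgeR adjusted p 0.000414). Eif2b2 had 27.3, 28.1, 31.9 and 34.3 CPM in flox/flox, 36.5, 37.8, 39.5 and 40.1 CPM in flox/+ and 36.2, 36.8, 38.6 and 43.1 CPM in CreER-only libraries (-0.34 ± 0.08 and -0.35 ± 0.08 against the other two, edgeR adjusted p 0.00386 and 0.00353). It also fell in Vil1 villi, with 12.6 to 19.5 (median 17.3) CPM in homozygous and 22, 25.2, 26 and 26.3 CPM in heterozygous libraries (-0.58 ± 0.13, edgeR adjusted p 0.00321), and the groups did not overlap. In Rosa26 mice Eif2b1 was called lower in homozygous crypts (all genes, 11.6%), and Eif2b2 and Eif2b5 in homozygous villi (all genes, 18.2%). The ratios of homozygous to heterozygous means were 0.782, 0.838 and 0.841, in turn, and the genotypes overlapped for the 2 villus genes. Eif2b4, in contrast, was higher in homozygous Rosa26 villi (0.31 ± 0.10) and Vil1 crypts (0.30 ± 0.08), with edgeR adjusted p of 0.0371 and 0.0215. These 2 calls were lost without single libraries (largest adjusted p 0.0818 without homozygous villus replicate 2 and 0.0744 without homozygous crypt replicate 1), and Eif2b4 overlaps Snx17, which has 270% of its reads, on the opposite strand. Eif2b3 was called higher in Vil1 villi (1.00 ± 0.37, edgeR adjusted p 0.0421), at 1.31 to 5.54 (median 2.31) CPM in homozygous and 1.19, 1.24, 1.46 and 1.5 CPM in heterozygous libraries, a call lost in 7 of 10 fits without 1 library (largest adjusted p 0.101 without homozygous villus replicate 4). No eIF2B gene was called in the first organoid set or in flox/flox spheroids, where the block for the line called Eif2b1 lower and Eif2b5 higher (-0.37 and 0.25, edgeR adjusted p 0.04 and 0.0418).

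Of the 14 eIF3 genes 7 were called lower in Rosa26 crypts, 5 in Rosa26 villi, 9 in the second organoid set and 0 in Vil1 crypts. The shares of all genes called lower were 11.6%, 18.2%, 24.3% and 17.7%, in the same order. In Rosa26 crypts 0 were called higher, and the 7 all belong to the 8 genes of the octamer, so 0 of the 6 other subunit genes was called. This split was made after the values were seen. The median log2 fold change was -0.32 for the octamer genes and -0.25 for the others, against 0.04 for all genes, so the contrast in calls was sharper than that in size. Eif3h had 145, 155, 160 and 176 CPM in homozygous and 202, 225, 226, 227 and 237 CPM in heterozygous Rosa26 crypts (-0.44 ± 0.08, edgeR adjusted p 0.00573). The groups did not overlap. The calls of Eif3h and Eif3k (-0.28 ± 0.07) held without any single library, while those of Eif3e, Eif3l, Eif3m, Eif3f and Eif3c were lost in 4, 1, 7, 8 and 9 of 9 such fits, with the largest adjusted p of 0.0826 without homozygous crypt replicate 4, 0.0577 without homozygous crypt replicate 4, 0.12 without homozygous crypt replicate 4, 0.154 without homozygous crypt replicate 4 and 0.111 without heterozygous crypt replicate 2. In Rosa26 villi 5 octamer genes fell. Eif3e had 29.3, 30.2, 31.9, 32.2 and 34 CPM in homozygous and 35.7, 36.3, 37.6, 41.3 and 47.4 CPM in heterozygous villi (-0.38 ± 0.10, edgeR adjusted p 0.014), and Eif3m had 19.7, 19.8, 20.7, 21.9 and 22.6 CPM in homozygous and 24, 25, 26, 26.7 and 29.4 CPM in heterozygous villi (-0.37 ± 0.09, edgeR adjusted p 0.00735). Neither gene overlapped between the genotypes. Eif3k fell as well (-0.22 ± 0.08, edgeR adjusted p 0.0415), a call lost in each of 10 fits without 1 library (largest adjusted p 0.127 without heterozygous villus replicate 3).

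The summed level of the 14 eIF3 genes averaged 1644 ± 140 CPM in homozygous and 2078 ± 125 CPM in heterozygous Rosa26 crypts (SD, n = 4 and 5), 1771 ± 23.5 and 1705 ± 85.5 CPM in Vil1 crypts (n = 3 and 4), and 3078 ± 118 against 3590 ± 115 CPM in flox/flox and flox/+ organoids (n = 4 each). In Rosa26 villi the sums averaged 741 ± 45.1 and 789 ± 24.7 CPM (n = 5 each) and in Vil1 villi 788 ± 108 and 769 ± 112 CPM (n = 6 and 4), homozygous first. With 4-OHT and with DMSO they averaged 2847 ± 180 and 2942 ± 26.3 CPM in the first organoid set (n = 3 each) and 3267 ± 416 and 3617 ± 535 CPM in flox/flox spheroids (n = 6 each). The sums of single libraries were apart between the groups in Rosa26 crypts and in the second organoid set, and overlapped in the other 5 comparisons.

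In Vil1 crypts, by contrast, 3 eIF3 genes were called, all higher, where 11.6% of all genes were called higher. They were Eif3g (0.31 ± 0.08), Eif3j1 (0.29 ± 0.07) and Eif3b (0.24 ± 0.07), with edgeR adjusted p of 0.0236, 0.0177 and 0.0398. Each was lost without single libraries (largest adjusted p 0.0848 without homozygous crypt replicate 1, 0.0719 without homozygous crypt replicate 1 and 0.142 without homozygous crypt replicate 3). None of the 3 belongs to the octamer. In Vil1 villi Eif3h had 42 to 60.8 (median 52.9) CPM in homozygous and 53.7, 63.4, 69.7 and 80 CPM in heterozygous libraries (-0.36 ± 0.13, edgeR adjusted p 0.042), a call lost in 7 of 10 fits without 1 library (largest adjusted p 0.147 without heterozygous villus replicate 1), and Eif3b rose (0.45 ± 0.16, edgeR adjusted p 0.0367; largest adjusted p 0.127 without heterozygous villus replicate 3). The second organoid set had 9 of 14 eIF3 genes lower in flox/flox than in flox/+ organoids (24.3% of all genes) and 9 lower than in CreER-only organoids (23.5%), comparisons that share the flox/flox libraries. Eif3a had 507, 519, 582 and 643 CPM in flox/flox, 667, 743, 763 and 794 CPM in flox/+ and 723, 724, 795 and 830 CPM in CreER-only libraries (-0.40 ± 0.08 and -0.45 ± 0.08, edgeR adjusted p 0.000877 and 0.000359). No flox/flox library reached the level of any of the other 8. In the first organoid set 0 of 14 eIF3 genes was called by edgeR, though 3 had an unadjusted p below 0.05, and Eif3e came nearest to a call (-0.24 ± 0.09, adjusted p 0.0813). In flox/flox spheroids edgeR called 0 of 14, with 1 at an unadjusted p under 0.05. With the line as a block it called 3 of 14 (Eif3e, Eif3h and Eif3m), all lower (17.1% of all genes).

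Of the genes accessory to eIF4F, Eif4h was called lower in 5 of the 7 comparisons with no library in common (7.99% of genes tested in all 7 were called lower in 5 or more) and Eif4b in 2, and Eif4e3 was called lower in organoids. Eif4b was not called in either set of villi. Eif4h had 317, 318, 337, 349 and 370 CPM in homozygous and 445, 474, 478, 505 and 506 CPM in heterozygous Rosa26 villi (-0.56 ± 0.09, edgeR adjusted p 0.000803), and 234 to 334 (median 265) against 386, 403, 438 and 451 CPM in Vil1 villi (-0.63 ± 0.12, edgeR adjusted p 0.00129). In both sets of villi all homozygous libraries lay below all heterozygous ones. In Rosa26 crypts its log2 fold change was -0.43 ± 0.08 (edgeR adjusted p 0.00579, or 0.065 with the Ddx3y covariate), and in the first organoid set it had 357, 370 and 394 CPM with 4-OHT and 454, 462 and 465 CPM with DMSO (-0.30 ± 0.08, edgeR adjusted p 0.0211; largest adjusted p 0.0805 without DMSO replicate 1). Eif4b had 304, 307, 350 and 443 CPM in homozygous and 454, 474, 527, 529 and 534 CPM in heterozygous Rosa26 crypts (-0.47 ± 0.11, edgeR adjusted p 0.019), a call lost in 4 of 9 fits without 1 library (largest adjusted p 0.0823 without homozygous crypt replicate 4). In the second organoid set Eif4b fell from 1173, 1174, 1182 and 1197 CPM in flox/+ to 896, 909, 920 and 956 CPM in flox/flox libraries (-0.36 ± 0.05, edgeR adjusted p 1.79e-05). Spheroids with 4-OHT had 855 to 994 (median 886) CPM if flox/flox and 1067, 1117, 1205, 1295 and 1530 CPM if flox/+ (-0.46 ± 0.14, edgeR adjusted p 0.0432), a call lost in 9 of 11 fits without 1 library (largest adjusted p 0.125 without flox/+ 4-OHT replicate 1). Eif4e3, a low-count gene, went from 3.23, 3.84 and 4.25 CPM with DMSO to 0.807, 0.977 and 1.21 CPM with 4-OHT in the first organoid set (-1.91 ± 0.24, edgeR adjusted p 0.00147). It was also lower in flox/flox than in CreER-only organoids of the second set (-0.94 ± 0.24, edgeR adjusted p 0.00564).

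Among factors of subunit joining and later steps, Eif5 rose alongside Eif1. eIF5 activates the GTPase of eIF2 when the start codon is found and competes with eIF1 on the scanning ribosome. Eif5 (chr12:111538016-111546752, plus strand) had 247, 255, 298 and 323 CPM in homozygous and 195, 198, 200, 208 and 229 CPM in heterozygous Rosa26 crypts (0.50 ± 0.09, edgeR adjusted p 0.00661), 474, 500 and 512 against 291, 305, 314 and 321 CPM in Vil1 crypts (0.69 ± 0.08, edgeR adjusted p 0.000517) and 347 to 399 (median 361) against 231, 234, 251 and 316 CPM in Vil1 villi (0.50 ± 0.11, edgeR adjusted p 0.0033). The genotypes were apart in all 3 tissues. In Rosa26 villi the difference was 0.27 ± 0.12 and was not called (edgeR adjusted p 0.0923). The first organoid set had 641, 653 and 742 CPM with 4-OHT and 403, 433 and 464 CPM with DMSO (0.65 ± 0.10, edgeR adjusted p 0.00273). The second had 965, 987, 988 and 1023 CPM in flox/flox, 647, 651, 676 and 697 CPM in flox/+ and 647, 690, 691 and 714 CPM in CreER-only libraries (0.57 ± 0.05 and 0.53 ± 0.05, edgeR adjusted p 5.21e-07 and 1.02e-06). Flox/flox spheroids had 680 to 996 (median 801) CPM with 4-OHT and 410 to 697 (median 583) CPM with DMSO (0.51 ± 0.12, edgeR adjusted p 0.00688). Between the 4-OHT-treated spheroids the flox/flox values of Eif5 compare with 506, 543, 546, 558 and 639 CPM in flox/+ spheroids, and the log2 fold changes were 0.55 ± 0.13 for Eif5, 0.83 ± 0.18 for Eif1 and -0.69 ± 0.13 for Eif2a (edgeR adjusted p 0.00997, 0.00498 and 0.00173). The calls of Eif5 named here held without any single library, but that in Rosa26 crypts was lost with the Ddx3y covariate (edgeR adjusted p 0.094). Eif5 was thus called higher in 6 of the 7 comparisons with no library in common, and 425 of 12043 genes (3.53%) were called higher in 6 or more.

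Eif5a, Eif6 and Eif5a2 rose in fewer settings. Eif5a had 422, 435 and 453 CPM in homozygous and 264, 291, 316 and 322 CPM in heterozygous Vil1 crypts (0.55 ± 0.09, edgeR adjusted p 0.00301) and was called in none of the other 6 comparisons with no library in common. Eif6 had 492, 653, 668, 685 and 701 CPM in homozygous and 367, 401, 407, 413 and 429 CPM in heterozygous Rosa26 villi (0.61 ± 0.11, edgeR adjusted p 0.00161), and the groups did not overlap. It was also called higher in Vil1 crypts (0.46 ± 0.09, edgeR adjusted p 0.00612), in 4-OHT against DMSO organoids (0.27 ± 0.09) and flox/flox against flox/+ organoids (0.17 ± 0.06), the last 2 calls being lost without single libraries (largest adjusted p 0.173 without DMSO replicate 1 and 0.0634 without flox/flox replicate 3). Eif5a2 had 8.99 to 28.7 (median 11.8) CPM with 4-OHT and 4.21 to 13.5 (median 6.16) CPM with DMSO in flox/flox spheroids (1.17 ± 0.33, edgeR adjusted p 0.0169), a call lost in 1 of 12 fits without 1 library (0.0527 without flox/flox 4-OHT replicate 5). It rose in the first organoid set as well, from 1.9, 2.46 and 2.59 CPM with DMSO to 3.34, 5.04 and 5.46 CPM with 4-OHT (0.99 ± 0.25, edgeR adjusted p 0.0203), a call lost in 4 of 6 fits without 1 library (largest adjusted p 0.0688 without 4-OHT replicate 1). Eif5b, the GTPase of subunit joining, rose in Vil1 crypts alone (0.42 ± 0.11, edgeR adjusted p 0.0202), a call lost in 3 of 7 such fits (largest adjusted p 0.0621 without homozygous crypt replicate 3). Rev1, on the opposite strand of Eif5b with 14% of its reads, rose there too (1.16, edgeR adjusted p 0.00134). The part of Rev1 reads in the Eif5b value was not tested.

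**Figure D3:**
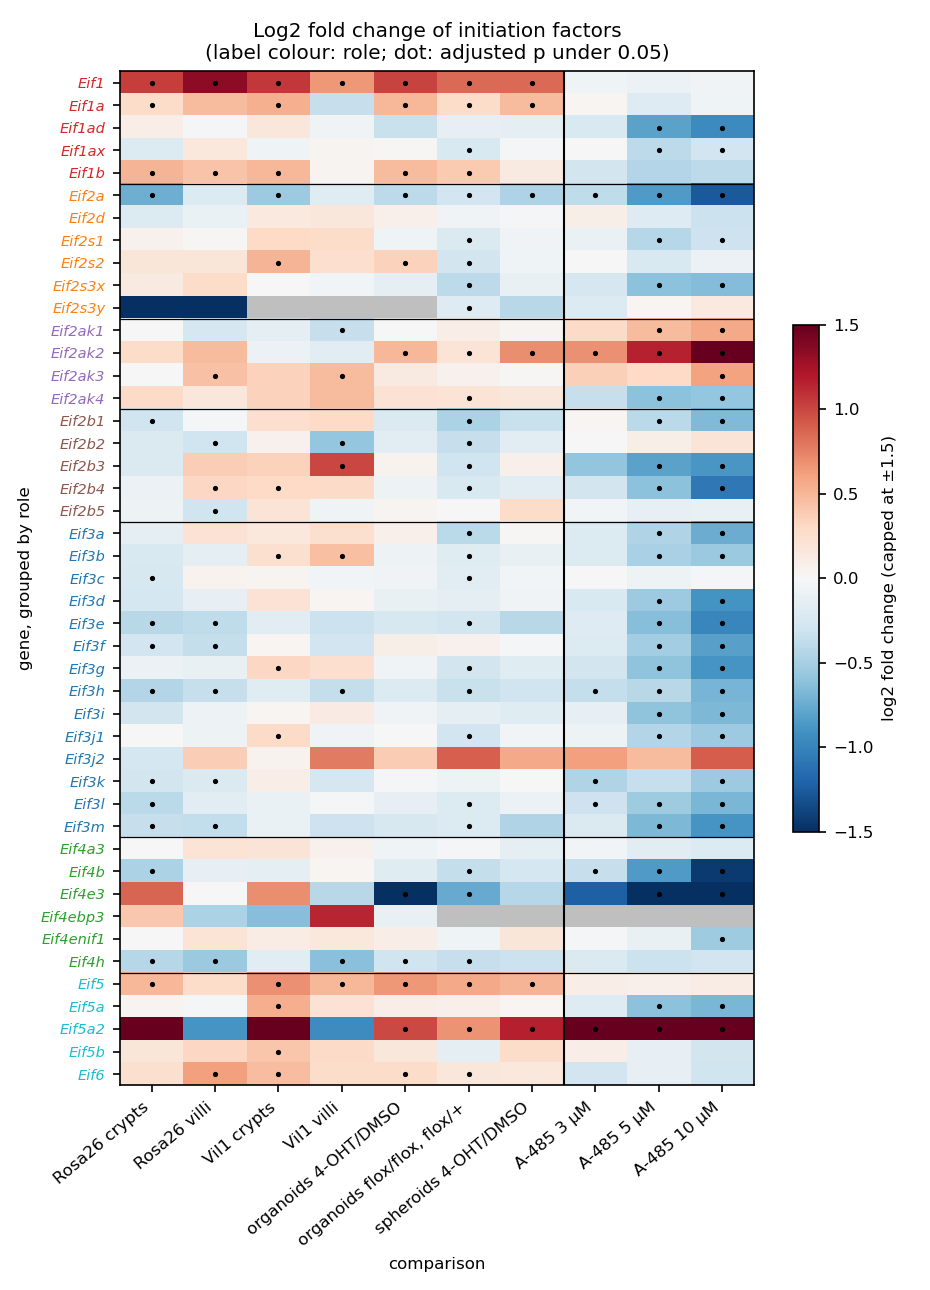
Log2 fold changes of the tested members (rows, grouped by role) in the 7 comparisons of lost against kept Eif4g2 with no library in common and in 3 doses of A-485 against DMSO (columns). Colour runs from blue (lower) through white (0) to red (higher) and is capped at 1.5 in either direction; dots mark an edgeR adjusted p under 0.05 and grey marks genes not tested. Eif1 is red in all 7 deletion columns and near white under A-485, and most eIF3 genes are blue at 5 and 10 µM.

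Composition moved together with genotype in tissue. Summed stromal markers averaged 917 CPM in homozygous and 369 CPM in heterozygous Rosa26 crypts, and ran from 51.8 to 2269 and from 46 to 945 CPM. Summed immune markers averaged 2319 and 5449 CPM in Rosa26 villi and 853 and 4057 CPM in Vil1 villi, homozygous first. The 5 stem cell markers summed to 434 against 4891 CPM in Rosa26 crypts and 442 against 5150 CPM in Vil1 crypts, and to 1973 against 6744 CPM in the second organoid set. Mitochondrial genes took 18.9% of counts in homozygous and 8.55% in heterozygous Rosa26 crypts. The part of these shifts in the results above was not tested.

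With A-485 more members were called at higher doses, most of them lower. At 3 µM 7 of 44 members were called against DMSO (19.2% of all genes), 2 higher (10.8%) and 5 lower (8.42%). At 5 µM 26 were called (49.6%), 3 higher (24.4%) and 23 lower (25.1%). At 10 µM 29 were called (62%), 4 higher (29.4%) and 25 lower (32.6%). The 3 doses share the DMSO libraries. Between 10 and 3 µM, which do not, 23 members differed (49.3%), 3 higher (22.1%) and 20 lower (27.2%) at 10 µM. The median of the members was -0.54 at 10 µM, against -0.05 for all genes. At 3 µM the count fell to 4 without DMSO replicate 1 or 4 and, with the line as a block, to 3, where only Eif2a, Eif2ak2 and Eif5a2 were called.

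Eif1 and Eif5, which rose after loss of Eif4g2, were not called at any dose of the inhibitor. Eif1 had 316, 319, 327 and 362 CPM with DMSO and 297, 316, 326 and 342 CPM with 10 µM (-0.05 ± 0.08, edgeR adjusted p 0.631), and Eif5 had 440, 471, 474 and 526 CPM with DMSO and 455, 470, 474 and 670 CPM with 10 µM (0.11 ± 0.15, edgeR adjusted p 0.534). Both genes overlapped between the groups. Eif1ad, the eIF1A-like gene, fell, with 74.1, 76, 76.3 and 76.7 CPM with DMSO, 33.4, 43.3, 45.7 and 52 CPM at 5 µM and 35.9, 38, 39.3 and 42.4 CPM at 10 µM (-0.80 ± 0.13 and -0.96 ± 0.13, edgeR adjusted p 5.81e-05 and 3.83e-06).

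Eif2a, the factor that also fell without Eif4g2, went down in steps. It had 127, 155, 157 and 159 CPM with DMSO, 97.7, 105, 121 and 135 CPM at 3 µM, 72.4, 73.1, 85.6 and 101 CPM at 5 µM and 57.8, 59.6, 63.1 and 68.7 CPM at 10 µM. The log2 fold changes were -0.38 ± 0.13, -0.85 ± 0.13 and -1.26 ± 0.13 (edgeR adjusted p 0.0421, 2.72e-05 and 1.35e-07), and -0.88 ± 0.13 between 10 and 3 µM. The value at 3 µM was lost as a call in 6 of 8 fits without 1 library (largest adjusted p 0.114 without 3 µM replicate 1). Serp1 on the opposite strand had 0.26 at 10 µM (edgeR adjusted p 0.0766). The eIF2 subunit genes Eif2s1 and Eif2s3x fell at 10 µM (-0.31 ± 0.09 and -0.65 ± 0.23, edgeR adjusted p 0.00743 and 0.0226), the call of Eif2s3x being lost in 4 of 8 fits without 1 library (largest adjusted p 0.0821 without DMSO replicate 2). In the 4 DMSO libraries Eif2s3y had 0, 0, 35.1 and 60.2 CPM, so lines of both kinds were present.

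Of the 4 kinase genes 3 rose at 10 µM (29.4% of all genes) and Eif2ak4 fell (32.6%). Eif2ak2 had 27, 27, 30.5 and 32.1 CPM with DMSO, 39.9, 45.3, 48.4 and 54.6 CPM at 3 µM, 52.9, 61.9, 66 and 79.9 CPM at 5 µM and 64.2, 82.4, 101 and 106 CPM at 10 µM. Its log2 fold changes were 0.69 ± 0.16, 1.16 ± 0.16 and 1.60 ± 0.16 (edgeR adjusted p 0.00533, 1.11e-05 and 1.16e-07). The DMSO and 10 µM groups did not overlap. Eif2ak1 had 58.3, 64.9, 80 and 80.3 CPM with DMSO, 87.8, 91.7, 104 and 108 CPM at 5 µM and 99.5, 101, 109 and 110 CPM at 10 µM (0.47 ± 0.11 and 0.57 ± 0.11, edgeR adjusted p 0.00196 and 0.000222). Eif2ak3 had 31.4, 32, 38 and 43.6 CPM with DMSO and 53.5, 53.7, 55.9 and 56 CPM at 10 µM (0.60 ± 0.14, edgeR adjusted p 0.001). Eif2ak4 went the other way, with 17.8, 19.3, 19.5 and 21.6 CPM with DMSO and 11, 12, 14 and 15.3 CPM at 10 µM (-0.58 ± 0.18, edgeR adjusted p 0.00811). Aimp2, on the opposite strand of Eif2ak1 with 26.1% of its reads, fell at 10 µM (-0.89, edgeR adjusted p 0.00159).

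Within eIF2B, 3 of 5 genes fell at 5 µM (25.1% of all genes) and 3 at 10 µM (32.6%). Eif2b4 had 32.4, 36.1, 43.7 and 45.5 CPM with DMSO, 29.6, 33.2, 33.4 and 34.7 CPM at 3 µM and 12, 18.9, 19.8 and 23.9 CPM at 10 µM (-1.07 ± 0.20, edgeR adjusted p 0.000131), while its opposite-strand neighbour Snx17 rose (0.64, edgeR adjusted p 0.000132). Eif2b3 had 15.3, 18, 20.7 and 28 CPM with DMSO and 9.45, 11.3, 12.2 and 14.3 CPM at 5 µM (-0.80 ± 0.26, edgeR adjusted p 0.0176), a call lost in 2 of 8 fits without 1 library (largest adjusted p 0.0707 without DMSO replicate 1). Eif2b1 and Eif2b3 had log2 fold changes of -0.66 ± 0.09 and -0.87 ± 0.26 at 10 µM (edgeR adjusted p 6.98e-06 and 0.00791).

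Most eIF3 genes fell at the higher doses. The number called lower among the 14 was 3 at 3 µM (8.42% of all genes), 11 at 5 µM (25.1%) and 12 at 10 µM (32.6%), with 0 higher at any dose, and their median log2 fold change went from -0.2 to -0.51 and -0.69. The summed level of the 14 genes went from 3898 ± 148 CPM with DMSO to 3385 ± 93.8, 2850 ± 63.8 and 2530 ± 39.7 CPM (SD, n = 4 each). Both parts of the complex fell, 7 of 8 octamer genes and 5 of 6 others at 10 µM. Eif3h had 379, 429, 456 and 475 CPM with DMSO, 293, 347, 355 and 358 CPM at 3 µM and 249, 265, 277 and 281 CPM at 10 µM (-0.36 ± 0.09 and -0.70 ± 0.09, edgeR adjusted p 0.0111 and 3.91e-06). Eif3k had 155, 167, 173 and 178 CPM with DMSO and 74.1, 130, 137 and 150 CPM at 3 µM (-0.45 ± 0.15, edgeR adjusted p 0.0422), a call lost in 5 of 8 fits without 1 library (largest adjusted p 0.113 without DMSO replicate 4). With the line as a block, edgeR's adjusted p at 3 µM was 0.0853 for Eif3h and 0.122 for Eif3k. The largest falls at 10 µM were those of Eif3e, -0.98 ± 0.13, and Eif3d, -0.90 ± 0.09, where Eif3d encodes a subunit that can itself bind a cap (edgeR adjusted p 2.98e-06 and 8.48e-08). Eif3c and Eif3j2 were the 2 eIF3 genes not called at 10 µM (-0.02 and 0.91, edgeR adjusted p 0.851 and 0.148).

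Apart from the low-count Eif4e3, the largest fall at 10 µM was that of Eif4b. It had 830, 852, 904 and 924 CPM with DMSO, 610, 664, 728 and 760 CPM at 3 µM, 451, 467, 510 and 521 CPM at 5 µM and 311, 314, 326 and 345 CPM at 10 µM. The log2 fold changes were -0.35 ± 0.09, -0.85 ± 0.09 and -1.44 ± 0.09 (edgeR adjusted p 0.0103, 4.95e-07 and 3.45e-10; 0.0564 at 3 µM with the line as a block), and -1.09 ± 0.09 between 10 and 3 µM (edgeR adjusted p 2.8e-08). No library at 10 µM reached any library at 3 µM. Eif4e3, at 2.4, 2.42, 4.02 and 4.39 CPM with DMSO, had 0.111, 0.268, 0.398 and 1.15 CPM at 10 µM (-2.73 ± 0.69, edgeR adjusted p 0.00207).

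The eIF5A paralogs moved in opposite directions. Eif5a had 918, 928, 971 and 987 CPM with DMSO and 447, 615, 636 and 658 CPM at 10 µM (-0.69 ± 0.15, edgeR adjusted p 0.000584). Eif5a2 had 1.53, 2.09, 2.24 and 4.7 CPM with DMSO, 5.37, 6.05, 6.78 and 12.4 CPM at 3 µM, 9.56, 11.2, 13.6 and 18.3 CPM at 5 µM and 21.5, 22.2, 26.6 and 29.9 CPM at 10 µM, with log2 fold changes of 1.52 ± 0.34, 2.31 ± 0.34 and 3.24 ± 0.35 (edgeR adjusted p 0.00403, 2.17e-05 and 2.43e-07). The values at 3 µM overlapped those at 5 µM, and every value at 10 µM lay above all others. Even at 10 µM Eif5a2 averaged 4.98 CPM per kilobase, against 248 for Eif5a. With A-485 the summed stem cell markers went from 6996 CPM with DMSO to 1482, 370 and 54.6 CPM at the 3 doses, and the summed enterocyte markers from 7773 to 201 CPM at 10 µM. The part of these shifts in the members' changes was not tested.

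**Figure D4:**
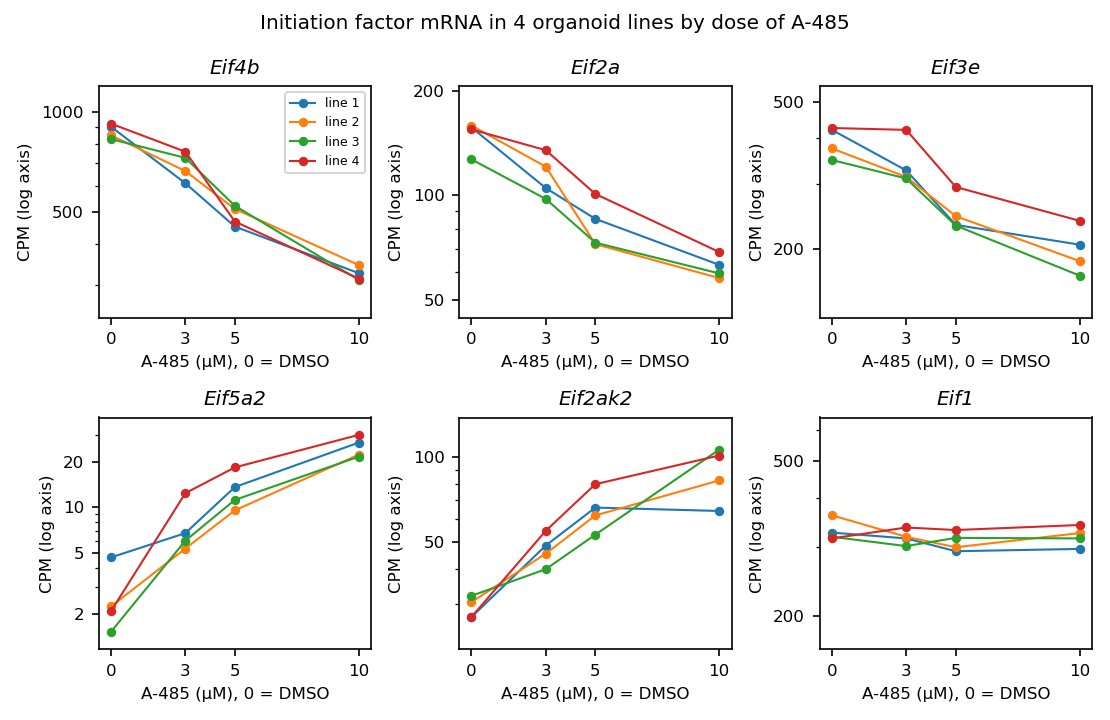
Levels of 6 members in each organoid line (lines join the 4 libraries of a line) against the concentration of A-485 in µM, with 0 for DMSO; the vertical axis is CPM after TMM scaling on a log axis. Eif4b, Eif2a and Eif3e fall and Eif5a2 and Eif2ak2 rise with dose, and Eif1 stays level.

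Genes outside the rule that act beside these factors were read for context. Of the 9 genes of eIF4F and its regulators, Eif4a2, a helicase paralog, was called higher in all 7 comparisons of lost against kept Eif4g2 with no library in common, by log2 fold changes of 1.14 in Rosa26 crypts, 0.51 in Rosa26 villi, 0.51 in Vil1 crypts, 0.70 in Vil1 villi, 0.77 and 0.74 in the organoid sets and 0.71 in spheroids, and by 0.88 at 10 µM A-485. Eif4g3 was called higher in 5 of the 7, not in Rosa26 villi (0.38) or spheroids (0.71). Of genes tested in all 7, 1.57% were called higher in each and 6.9% in 5 or more. In total 2 rose (all genes, 8.63%) and 1 fell (11.6%) in Rosa26 crypts, and 4 (11.6%) and 2 (17.7%) in Vil1 crypts. In flox/flox against flox/+ organoids 2 rose (22.6%) and 5 fell (24.3%), and at 10 µM A-485 2 rose (29.4%) and 3 fell (32.6%). Eif4g2 was one of those that fell in the deletions. Of 11 elongation and release factor genes, 8 fell (all genes, 32.6%) and 1 rose (29.4%) at 10 µM (median -0.88). In Rosa26 crypts 1 rose (all genes, 8.63%) and 1 fell (11.6%). The one that rose in both was Gspt2, a release factor paralog (3.81 and 1.25). Of 15 other initiation helpers, Pabpc1, the poly(A)-binding protein, fell in Rosa26 crypts (-0.82), Vil1 crypts (-0.39), both organoid sets (-0.29 and -0.49) and at 10 µM A-485 (-0.96). Pabpc1 was picked from this list, and the other helpers are not described here, so it does not stand for them.

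The arm of eIF2alpha regulation was covered by 7 phosphatase and partner genes and 27 targets of the factor ATF4, whose translation rises when eIF2alpha is phosphorylated. Ppp1r15a, the inducible subunit of the eIF2alpha phosphatase, was higher in the first organoid set (0.89), flox/flox against flox/+ organoids (0.91), Rosa26 villi (0.95), Vil1 villi (1.32) and at 10 µM A-485 (2.56). Impact, which restrains GCN2, rose in Rosa26 crypts (0.95), Vil1 crypts (0.64), Vil1 villi (0.72), the organoid sets (1.15 and 0.70) and at 10 µM (1.20). Ppp1r15a and Impact were picked from the 7 phosphatase and partner genes. The others are not described here, so these genes do not stand for the list. The ATF4 targets went both ways, and the numbers that rose and fell are given with the share of all genes called in that direction. They were 4 (all genes, 8.63%) and 6 (11.6%) in Rosa26 crypts, 9 (all genes, 15%) and 6 (18.2%) in Rosa26 villi, 10 (all genes, 11.6%) and 6 (17.7%) in Vil1 crypts and 10 (all genes, 20.9%) and 8 (21.6%) in Vil1 villi. In cultures they were 1 (all genes, 18.2%) and 9 (17.2%) with 4-OHT in organoids, 3 (all genes, 22.6%) and 14 (24.3%) in flox/flox against flox/+ organoids, 0 (all genes, 9.01%) and 8 (10%) in flox/flox spheroids and 8 (all genes, 29.4%) and 11 (32.6%) at 10 µM. The eIF2alpha kinase genes that rose, Eif2ak2 and Eif2ak3 among them, were accompanied by falls as well as rises among these targets in Rosa26 villi, Vil1 villi, the organoid sets and A-485. In flox/flox spheroids, where Eif2ak2 was also called higher, 0 targets rose and 8 fell. Kinase activity and phosphorylation of eIF2alpha were not measured.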

How the data were processed

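Poly(A) RNA of mouse intestine, organoids and fetal spheroids was sequenced with directional libraries, per the labels' protocols. The authors deposited 4 tables of raw read counts per gene with a gene length; alignment used HISAT2 2.0.5 and build GRCm38 (mm10), per the submitters' processing notes. The counting tool and whether it used strand are not given in the sources used here, so reads of a gene and an overlapping opposite-strand gene cannot be told apart. Counts were fitted on all genes with edgeR 4.0.16 in R 4.3.3 (genes kept by filterByExpr for the groups, scaled by TMM, then tested with the robust quasi-likelihood F-test and adjusted by Benjamini-Hochberg over all tested genes). A gene is called at an adjusted p under 0.05. A joint fit of all groups served the second organoid set, the spheroids, the A-485 libraries and the interactions. Every other comparison had its own fit, which held just the groups compared. The standard error is the absolute log2 fold change over the square root of F. Alternatives were DESeq2 1.42.0 size factors and Wald test, no filter beyond 1 read, the 2 groups alone, and a replicate block. For the interactions the block, chosen after seeing the data, was the line or animal of the library names. Further alternatives were a Ddx3y covariate in tissue of both drivers, added A-485 libraries for the first organoid set, and each library left out. Replicate numbers pair libraries of one line (first organoid set, spheroids within a genotype, A-485) or one animal (crypt and villus of Rosa26 and of heterozygous Vil1 mice), per the library names in the labels; correlations of their deviations ran from -0.00247 to 0.857. Any 2 libraries of a group differed beyond sampling noise (chi-square per degree of freedom at least 5.79 over 164 pairs). Members and lists were chosen with earlier results of these data known. Values of every library are given for Eif2s3x, Eif2s3y, Eif1a, Eif1ax, the 4 kinases and, per comparison, the 3 largest rises and falls among called members whose mean log2 CPM was 2 or more; others were chosen after their values were seen. Promoter windows (RefSeq, GRCm38.p6) were searched on both strands, and motif matches may overlap. The calling steps were tested on simulated data.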

Additional observations from a re-analysis of the deposited data

Results flagged for a closer look

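Genotype effects that differed between crypts and villi were tested as interactions, villus effect minus crypt effect. In Rosa26 mice 6 of 45 members were called (11.5% of all genes), 5 higher (6.68%) and 1 lower (4.86%). Eif2a, with a fall in crypts, had an interaction of 0.63 ± 0.14 (SE, edgeR adjusted p 0.0121), which held without any single library. The values of Eif1ax (0.47), Eif2b4 (0.51), Eif3c (0.40), Eif4a3 (0.31) and Eif5a2 (-2.45) had edgeR adjusted p from 0.0343 to 0.0443. They were lost in 13 of 19, 11 of 19, 9 of 19, 16 of 19 and 14 of 19 fits that each left out 1 library, with the largest adjusted p of 0.199 without homozygous crypt replicate 1 for Eif4a3.

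In Vil1 mice 3 members were called (15.5%), 0 higher (9.38%) and 3 lower (6.14%): Eif1a (-0.84 ± 0.25), Eif2b2 (-0.64 ± 0.18) and Eif5a2 (-2.69 ± 0.70), with edgeR adjusted p of 0.0337, 0.0262 and 0.0172. They were lost in 7 of 17, 4 of 17 and 1 of 17 such fits, the largest adjusted p being 0.0892 without homozygous crypt replicate 3, 0.0965 without homozygous crypt replicate 1 and 0.064 without homozygous crypt replicate 1, in turn. Eif5a2 had values of the same sign in both drivers (with the animal as a block, edgeR adjusted p 0.131 in Rosa26 and 0.0206 in Vil1 mice), on few reads, at 0.627, 1.54, 3.98 and 4.67 CPM in homozygous and 0.38, 0.856, 0.863, 0.979 and 1.3 CPM in heterozygous Rosa26 crypts. Between the 4-OHT effects in flox/flox and flox/+ spheroids 0 members differed in edgeR (1.62% of all genes), with 3 at an unadjusted p under 0.05. With the line as a block 6 differed (18.3%), 4 higher (8.22%: Eif1, Eif5, Eif1a and Eif5a2) and 2 lower (10.1%: Eif3m and Eif4h). With the animal as a block 2 were called in Rosa26 mice (4.71%), Eif2a (0.62) and Eif4e3 (-1.19), and 4 in Vil1 mice (12.7%), Eif1a, Eif5a2, Eif4e3 (-1.21) and Eif4h (-0.55).

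Single libraries far from the rest of their group were found in 13 of 197 sets of values, where chance gives about 1 in 20, or 9.8. Flox/flox 4-OHT spheroid replicate 6 had 327 CPM of Eif1 beside at least 581 in the other 5. Its DMSO partner, replicate 6, had the lowest summed level of all members, 6903 CPM beside at least 9246, and the highest Eif2ak2, 51.1 CPM beside at most 34. Among the lines given A-485, Eif5 stood at 670 CPM in replicate 4 at 10 µM beside at most 474, Eif3h at 293 CPM in replicate 4 at 3 µM beside at least 347, and Eif2a at 127 CPM in DMSO replicate 3 beside at least 155. In heterozygous Vil1 crypts Eif2ak4 was low in replicate 4 at 12.7 CPM and Eif6 low in replicate 2 at 70.6 CPM. In Rosa26 mice Eif1a was low in heterozygous crypt replicate 3 at 64.9 CPM, Eif2b3 high in heterozygous villus replicate 3 at 1.42 CPM and Eif6 low in homozygous villus replicate 5 at 492 CPM. The Y-linked Eif2s3y was present at 20.4 CPM in 1 of 4 homozygous Rosa26 crypt libraries and at 41.9 CPM in 1 of 4 heterozygous Vil1 crypt libraries, with 0 in the others.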

How the results depend on the processing

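Under each alternative all genes were fitted again. Of 159 named log2 fold changes, 141 were called; none of the 141 changed sign in any of 1972 values under alternatives, 283 of these values missed the threshold, and 91 of the 141 were called under every alternative. Signs changed for 4 values that were not called: with a covariate for Ddx3y reads in Rosa26 crypts, Eif2s3x went to -0.42 and Eif2s3y to 0.01, and without one library at 10 µM A-485, Eif3c ran from -0.07 to 0.02 and Eif5 from -0.03 to 0.17. Counts of members called moved by over 1.5 times in these cases. Without the filter on low counts, 7 members were called in Rosa26 crypts, 8 in Rosa26 villi and 1 in the Rosa26 interaction. With only DMSO and 3 µM in the fit, 4 were called for A-485, and with the A-485 libraries added, 6 in the first organoid set. The DESeq2 Wald test called 7 between 4-OHT-treated flox/flox and flox/+ spheroids. With the replicate number as a block, 9 were called in Rosa26 crypts, 3 at 3 µM A-485, 13 in flox/flox spheroids and 1 between the 4-OHT-treated spheroid genotypes, and with the line or animal of the library names as a block, an alternative chosen after seeing the data, 2 in the Rosa26 interaction and 6 in the spheroid interaction; the cause was not tested. The block changed no other count by over 1.5 times. Samples of different genotypes share only a number.

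With each library left out in turn, the count ran from 7 to 18 in Rosa26 crypts, from 7 to 13 in Rosa26 villi, from 7 to 16 in Vil1 crypts, from 5 to 10 in Vil1 villi, from 5 to 12 in organoids with 4-OHT, from 4 to 7 at 3 µM A-485, from 1 to 10 in the Rosa26 interaction, from 0 to 4 in the Vil1 interaction, from 4 to 9 in flox/flox spheroids and from 3 to 5 between 4-OHT-treated spheroids. A count of 0 stayed at 0 in each of these fits. Totals per library limit what can be seen for Eif5a2, Eif4e3, Eif3j2 and Eif4ebp3, which had few reads, and Eif4e1b could not be tested.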

Other observations

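The roles differed in how their summed levels changed between crypt and villus. In heterozygous Rosa26 mice the summed level of the 5 eIF2B genes was 175 ± 8.71 CPM in crypts and 109 ± 6.13 CPM in villi (SD, n = 5 each), and that of the 4 kinases was 120 ± 4.92 CPM in crypts and 249 ± 27.5 CPM in villi. The sum of the kinases was thus higher on the villus, and that of the eIF2B genes was higher in crypts. These sums are not corrected for gene length, so they do not rank the roles against each other.

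A run of at least 8 pyrimidines holding a C, within 30 bases before to 15 bases after the annotated start on the transcribed strand, resembles the start of messages whose translation depends on mTOR. It was found in 8 of the 36 matched members (Eif2b2, Eif2b5, Eif2s3x, Eif2s3y, Eif3f, Eif3l, Eif3m and Eif4enif1) and in 14.7% of all windows, where a member may have several windows. It was in none of the windows of Eif1, Eif1b and Eif5. These are descriptions of letters; translation was not measured.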
